A study of Mus musculus with 9 samples.

Results

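This account follows 10 genes of the circadian clock, the cell-autonomous oscillator that times transcription over the day, through beige differentiation of mouse fat precursors. They are the repressors Per1, Per2, Per3, Cry1, Cry2 and Ciart, the nuclear receptors Nr1d1 and Nr1d2, and the output factors Dbp and Tef. They were chosen by gene symbol, and each matched 1 row among the 55359 genes of the count table. RNA-seq was done on 9 libraries of adipocyte precursors from mouse inguinal white adipose tissue, a subcutaneous depot, in 3 groups of 3. Day 0 cells were not induced. Day 4 and day 8 cells had received an induction medium with 2 µg/mL dexamethasone (a synthetic glucocorticoid), the phosphodiesterase inhibitor 3-isobutyl-1-methylxanthine at 0.5 mmol/L (it raises cAMP), indomethacin at 125 µmol/L, insulin at 5 µg/mL, 3,3′,5-triiodo-L-thyronine at 1 µmol/L and rosiglitazone, which activates the fat cell receptor PPARγ, at 0.5 µmol/L. After 2 days dexamethasone, 3-isobutyl-1-methylxanthine and indomethacin were left out, and the maintenance medium was renewed every 2 days. Strain, sex, age, the number of animals, the time of day of harvest and the hours since the last medium change are not given in the sources used here. With 1 harvest per day, a shift in clock phase and a change in the mean level of a gene cannot be told apart.

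The core of the clock is a loop in which BMAL1 (encoded by Arntl) and CLOCK bind E-box sequences and switch on the Per, Cry, Nr1d and Dbp genes. PER and CRY proteins then repress BMAL1 and CLOCK. NR1D1 and NR1D2 (REV-ERBα and REV-ERBβ) repress Arntl at response elements for which the activating ROR receptors compete, and DBP and TEF activate genes through D-boxes, where NFIL3 represses. Peripheral clocks, that of fat included, can be reset by glucocorticoids, cAMP and fresh serum, and Per1 is a known immediate target of the glucocorticoid receptor and of CREB. In brown fat NR1D1 is known as a repressor of Ucp1.

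Promoter sequences of 9 of the 10 members were found in a table of RefSeq promoters on build GRCm38.p6, which spans 250 bases before to 50 bases after a start site. The counts were made on GRCm39, so these coordinates serve the sequences only. They are shown because E-boxes and D-boxes are the sequences through which this loop acts on its own genes. On either strand the E-box CACGTG lay in the promoters of Ciart, Cry1, Per1 and Tef, against 7.17% of 32544 distinct promoters in the table. Members are counted by gene over all their start sites, and the shares by promoter. The second start site of Per1 held no E-box. A variant of the E-box, CACGTT, lay in those of Cry1, Cry2 and Nr1d1 (4.71% of all promoters), and the D-box TTATGTAA only in that of Per3 (0.931%). The 2 E-box forms differ in their last base, so no match counts for both. None of the members' promoters held the D-box TTACGTAA (0.12%), the core TAGGTCA of the ROR response element (2.61%) or the full cAMP response element TGACGTCA (1.8%). None held a full palindromic glucocorticoid response element either, which is rare in the table (0.00922% of all promoters). A shorter form of the cAMP response element, TGACG, lay in 20.9% of all promoters. On either strand it occurs at both start sites of Per1 and in the promoters of Cry1 and Cry2. It was not tallied over the members and is left in small letters below. For Dbp and Nr1d2 none of these letters were in the window. Below, the capitals mark these matches, and each sequence runs 5′ to 3′ on the strand of its gene.
Ciart promoter, chr3:95882179-95882478, minus strand, 3 E-boxes: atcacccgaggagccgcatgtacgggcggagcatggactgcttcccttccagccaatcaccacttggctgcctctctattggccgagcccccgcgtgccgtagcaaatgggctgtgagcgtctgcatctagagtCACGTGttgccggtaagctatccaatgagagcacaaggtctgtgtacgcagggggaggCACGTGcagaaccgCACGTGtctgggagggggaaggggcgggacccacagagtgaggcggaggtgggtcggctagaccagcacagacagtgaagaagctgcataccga
Per3 promoter, chr4:151044616-151044915, minus strand, 2 D-boxes: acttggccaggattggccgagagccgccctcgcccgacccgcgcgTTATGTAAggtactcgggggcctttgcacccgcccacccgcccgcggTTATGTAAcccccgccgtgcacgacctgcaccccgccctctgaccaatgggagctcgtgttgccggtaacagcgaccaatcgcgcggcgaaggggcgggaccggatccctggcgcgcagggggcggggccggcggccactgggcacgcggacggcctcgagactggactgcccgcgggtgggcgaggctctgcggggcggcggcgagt
Cry1 promoter, chr10:85185005-85185304, minus strand, 1 E-box and 1 variant E-box: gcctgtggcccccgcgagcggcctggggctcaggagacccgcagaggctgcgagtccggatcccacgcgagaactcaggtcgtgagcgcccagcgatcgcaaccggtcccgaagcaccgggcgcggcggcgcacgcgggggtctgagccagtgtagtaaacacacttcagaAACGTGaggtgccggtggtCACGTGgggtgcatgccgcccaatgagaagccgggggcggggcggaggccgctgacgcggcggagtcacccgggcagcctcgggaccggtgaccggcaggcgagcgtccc
Nr1d1 promoter, chr11:98775328-98775627, minus strand, 1 variant E-box: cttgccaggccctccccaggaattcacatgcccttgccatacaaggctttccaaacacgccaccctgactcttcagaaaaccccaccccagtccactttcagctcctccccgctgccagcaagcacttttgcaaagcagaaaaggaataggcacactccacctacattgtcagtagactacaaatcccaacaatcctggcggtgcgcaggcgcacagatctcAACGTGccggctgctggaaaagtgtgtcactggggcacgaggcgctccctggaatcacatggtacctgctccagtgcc
Per1 promoter, chr11:69098699-69098998, plus strand, the first of 2 start sites in the table, 1 E-box: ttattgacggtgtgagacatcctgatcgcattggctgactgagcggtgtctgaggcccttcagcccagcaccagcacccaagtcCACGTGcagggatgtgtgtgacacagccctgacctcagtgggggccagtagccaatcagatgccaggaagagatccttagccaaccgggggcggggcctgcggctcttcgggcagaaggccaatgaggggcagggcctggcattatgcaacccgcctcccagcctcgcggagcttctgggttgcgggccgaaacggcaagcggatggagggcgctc
Counted from the start site, the 3 E-boxes of Ciart began at bases -116, -58 and -44, and the D-boxes of Per3 at -205 and -158. A match is a description of letters and was not tested for binding.

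Total counts per library were 26387408 to 31474490, and all 10 members passed the filter on low counts. Values are CPM, counts per 1e6 counts of the TMM-adjusted library total, as mean ± SD with n = 3 libraries, and log2 fold changes are given with a standard error (SE). Adjusted p-values are those of edgeR's quasi-likelihood test over 14649 genes. The labels do not say whether the replicates are different cultures or animals, so the p-values reflect the spread among these libraries, part or all of which may be technical. Day 4 replicate 2 stood apart from the other day 4 libraries: on the first principal component (75.7% of variance) it scored 13.7 against 84.6 and 69.5, and its 10 adipocyte genes summed to 26948 CPM against 46911 and 42957. At day 0 that sum was 403 to 482 CPM. Adipoq, which encodes the fat cell hormone adiponectin, had 0.0216 ± 0.0374, 2168 ± 540 and 1444 ± 225 CPM on days 0, 4 and 8. Over these days 10 precursor genes summed to 25595 to 29872, 7274 to 13481 and 4770 to 8148 CPM. Col1a1 (mean 15126 CPM) and Col3a1 (9652) made up most of the day 0 sum. By day 4, 3 of the 9 tested rose and 5 fell (28.6% and 26.0% of all genes). Those that rose were Dlk1 (1.12, SE 0.37), Ly6a (1.00, SE 0.31) and Cd34 (1.70, SE 0.52), with edgeR adjusted p of 0.0263, 0.0198 and 0.0177. Between days 0 and 8, 0 rose and 6 fell, while Dlk1, Ly6a and Cd34 did not pass (-0.08, -0.21 and -0.46). The mitochondrial share of counts was 1.49% to 1.73% at day 0, 3.17% to 5.65% at day 4 and 4.94% to 8.46% at day 8. Macrophage markers summed to 37.6 to 85.1 CPM at day 0, 50.5 to 69.8 at day 4 and 8.81 to 46.3 at day 8, with 0 of 8 absent from all libraries. Endothelial markers summed to 11.8 to 15.9 CPM at day 0, 2.75 to 10.6 at day 4 and 1.85 to 2.77 at day 8. Mural markers summed to 26.7 to 35.7, 26.3 to 35.6 and 38.3 to 45.0 CPM at days 0, 4 and 8. Mesothelial markers summed to 16.1 to 21.6, 19.2 to 43.6 and 30.3 to 50.9. Schwann cell markers summed to 4.04 to 6.33, 5.51 to 9.98 and 5.52 to 8.76, and skeletal muscle markers to 30.5 to 37.1, 2.09 to 6.75 and 8.26 to 12.4. These sums rested on few genes. On average Lyz2 made up most of the macrophage sum (49.2, 42.8 and 17.3 CPM at days 0, 4 and 8). Cd68 averaged 3.86, 2.33 and 7.04. From day 4 to day 8, 1 macrophage marker rose (Cd68) and 2 fell (11.7% and 10.8% of all genes). Tek made up most of the endothelial sum (10.6, 4.38 and 1.57), while Pecam1 averaged 0.340, 0.151 and 0.476. From day 0 to day 8, 0 endothelial markers rose and 4 fell (33.5% and 29.9% of all genes). Over days 0, 4 and 8, Cspg4 averaged 3.94, 7.13 and 14.7 CPM and Notch3 16.5, 18.0 and 24.5. Myh11 averaged 8.30, 5.02 and 1.84, and Rgs5, Abcc9 and Kcnj8 were also lower at day 8 than at day 0. Krt19 made up most of the mesothelial sum (18.7, 27.6 and 39.3 CPM) and S100b most of the Schwann cell sum (3.61, 6.20 and 5.63). Acta1 made up most of the skeletal muscle sum (32.9, 3.18 and 8.57), with Myh4 and Ckm at 0. Epithelial markers summed to at most 0.651 CPM. Lymphocyte markers summed to at most 0.404 CPM, with Cd3d, Cd4 and Ms4a1 at 0. The part of these other cells in the clock results was not tested, and in bulk RNA fewer expressing cells and less RNA per cell cannot be told apart.

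**Figure D1:**
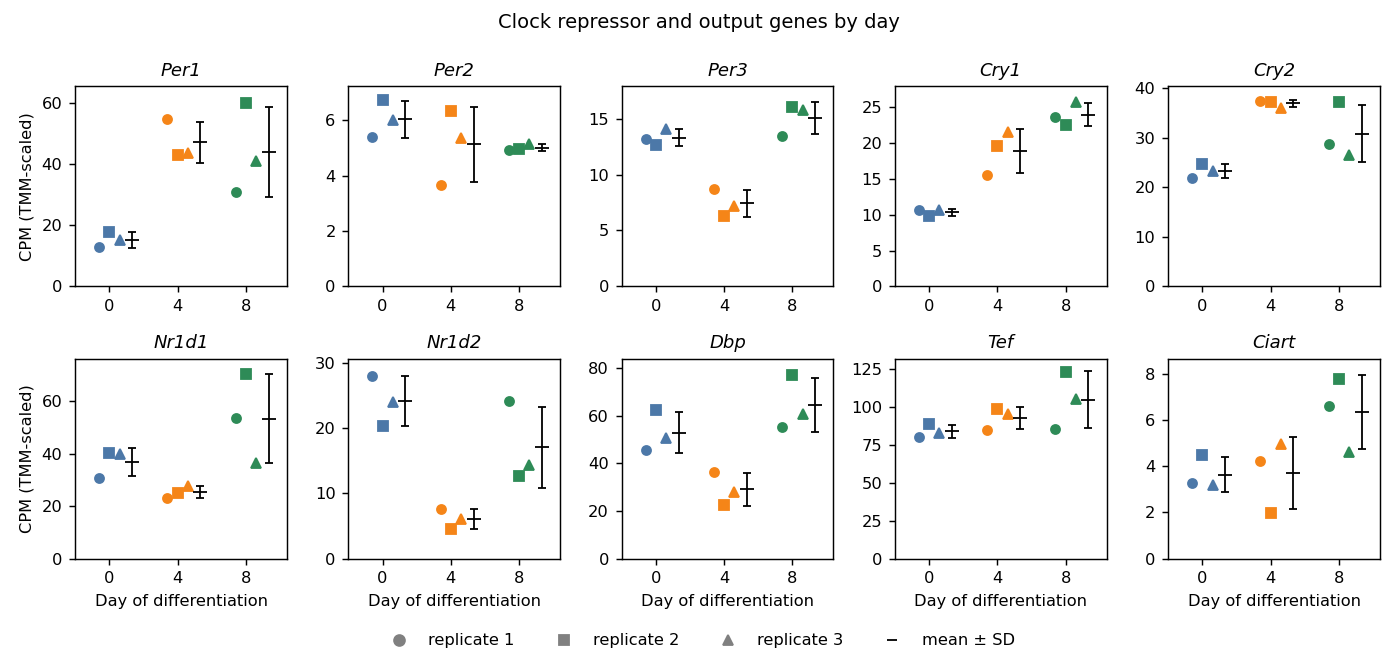
CPM of the 10 clock genes (vertical axes, each from 0) at day 0, 4 and 8 (horizontal axes), with 1 point per library, the symbol giving the replicate, and a bar for mean ± SD. Dbp, Nr1d1, Nr1d2 and Per3 are lowest at day 4, where Nr1d2 averages 6.06 CPM against 24.1 at day 0 and 17.0 at day 8, while Per1, Cry1 and Cry2 stand above day 0 in every library of days 4 and 8.

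By day 4 the clock genes had split. Per3, Nr1d2 and Dbp fell, Per1, Cry1 and Cry2 rose, and Per2, Nr1d1, Tef and Ciart did not pass the test. Among all genes tested, 28.6% rose and 26.0% fell between these days, 54.6% together, so 6 called members of 10 is near the background. The libraries of the 2 days did not overlap for 7 members of 10, and for 65.8% of all genes. The median log2 fold change of the members was -0.10, and that of all tested genes -0.01. Between day 4 and day 8, 4 members rose and 0 fell, where 11.7% of all genes rose and 10.8% fell (22.4% together). Libraries did not overlap for 5 members of 10, against 37.0% of all genes. The 4 were Per3, Nr1d1, Nr1d2 and Dbp, and the members' median was 0.56 against 0.00 for all tested genes. These comparisons share the day 4 libraries, so each day 4 value enters both. The members were chosen with earlier results of these data known, so the counts and medians beside those of all genes are descriptions only.

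Nr1d2, which encodes the repressor REV-ERBβ, had the largest change of the members. It stood at 28.0, 20.3 and 24.0 CPM in the day 0 libraries, at 7.59, 4.54 and 6.06 CPM at day 4 and at 24.1, 12.6 and 14.4 CPM at day 8. All day 4 libraries lay below all others, while day 0 and day 8 overlapped. From day 0 to day 4 Nr1d2 fell by 74.9% (log2 fold change -1.99, SE 0.28, edgeR adjusted p = 0.000168), and it rose 2.81-fold from day 4 to day 8 (1.49, SE 0.28, edgeR adjusted p = 0.00495). Both calls passed in all 15 alternatives, with adjusted p of at most 0.00137 and 0.0235.

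Its paralog Nr1d1, which encodes REV-ERBα, measured 30.7, 40.1 and 39.8 CPM at day 0, 23.1, 25.1 and 27.7 CPM at day 4 and 53.5, 70.2 and 36.5 CPM at day 8. Day 4 was again below every other library, and day 8 was the most scattered, with replicate 3 inside the day 0 range. The rise from day 4 to day 8 was 2.11-fold (1.08, SE 0.22, edgeR adjusted p = 0.00752). The difference from day 0 to day 4 did not pass (-0.54, SE 0.22, edgeR adjusted p = 0.0553). It passed when day 0 replicate 1 was removed (-0.67, 0.0435), or day 8 replicate 2 (0.0287) or 3 (0.0210), with DESeq2 (0.0470), with no filter on low counts (0.0354), with only these days in the fit (0.0170) and with total counts (-0.86, 0.00489). Nr1d1 shares 263 of its 3077 exon bases in GENCODE M21 (8.55%) with Thra, the thyroid hormone receptor α gene on the opposite strand, and the strand setting of the counting is not given in the sources used here. Thra measured 166 ± 8.23 CPM at day 0, 112 ± 24.2 at day 4 and 69.4 ± 15.5 at day 8. It fell to day 4 (-0.57, SE 0.19, edgeR adjusted p = 0.0265), a difference close to that of Nr1d1, though that call was lost on removal of day 0 replicate 2 (0.0506) or 3 (0.0696) or of day 4 replicate 1 (0.0939) or 3 (0.0744). From day 4 to day 8, while Nr1d1 rose, Thra was lower again (-0.69, SE 0.19, edgeR adjusted p = 0.0273), a call lost on removal of day 4 replicate 3 (0.0695) or of day 8 replicate 1 (0.0927) or 3 (0.0795), and with only these days in the fit (0.0569). The part of shared exon bases in these values was not tested.

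Dbp, the D-box activator whose RNA is among the most strongly cycling in many tissues, measured 45.5, 62.5 and 50.7 CPM at day 0. At day 4 it was at 36.5, 22.6 and 28.2 CPM, and at day 8 at 55.3, 77.3 and 60.8 CPM. Day 4 did not overlap either other day. Dbp fell by 45.0% to day 4 (-0.86, SE 0.20, edgeR adjusted p = 0.00450) and rose 2.21-fold to day 8 (1.15, SE 0.20, edgeR adjusted p = 0.00422), in all 15 alternatives. Of its 2993 exon bases 539 (18%) overlap Sphk2, a sphingosine kinase gene on the opposite strand, whose mean CPM of 33.8, 67.9 and 60.5 at days 0, 4 and 8 was higher at day 4 than at day 0 (1.01, SE 0.14, edgeR adjusted p = 0.000154).

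Per3, a period protein that is dispensable for the core rhythm, followed the same course. It measured 13.2, 12.6 and 14.1 CPM at day 0, 8.72, 6.31 and 7.21 CPM at day 4 and 13.4, 16.0 and 15.8 CPM at day 8. It fell by 44.2% to day 4 (-0.84, SE 0.17, edgeR adjusted p = 0.00189) and rose 2.03-fold to day 8 (1.02, SE 0.17, edgeR adjusted p = 0.00322), again in all 15 alternatives. Tef, the D-box factor related to Dbp, measured 80.3, 88.7 and 83.0 CPM at day 0, 84.4, 98.3 and 95.5 CPM at day 4 and 85.5, 123 and 105 CPM at day 8. Neighbouring days overlapped, and the difference from day 0 to day 4 was 0.14 (SE 0.15, edgeR adjusted p = 0.433; -0.18 with total counts). The test therefore called Dbp and not Tef; the difference between them was not tested.

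**Figure D2:**
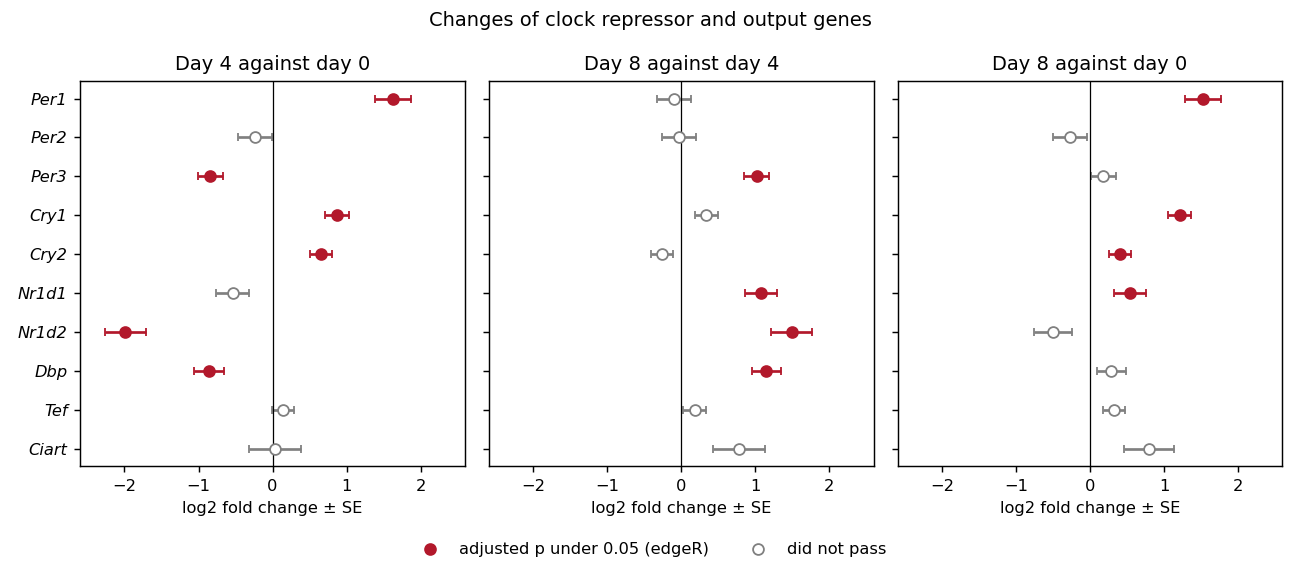
Log2 fold change ± SE (horizontal axis) of each clock gene in the 3 comparisons. Filled points passed an edgeR adjusted p of 0.05: Per3, Nr1d2 and Dbp lie left of 0 at day 4 against day 0, and Per3, Nr1d1, Nr1d2 and Dbp lie right of 0 at day 8 against day 4.

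Of the period genes, Per1 rose by day 4, Per3 fell and Per2 did not pass the test, while both cryptochrome genes rose. Differences between paralogs were not tested. Per1, the period gene induced by hormones and cAMP, rose from 12.8, 17.9 and 15.1 CPM at day 0 to 54.8, 43.1 and 43.6 CPM at day 4, and stood at 31.0, 60.0 and 40.9 CPM at day 8. Every library of days 4 and 8 lay above day 0. The rise to day 4 was 3.09-fold (1.63, SE 0.24, edgeR adjusted p = 0.000218), and days 4 and 8 overlapped (-0.10, SE 0.23, edgeR adjusted p = 0.774; 0.02 without day 4 replicate 1 and 0.10 without day 8 replicate 1). Per2, the period gene most needed for rhythm, measured 5.39, 6.73 and 6.01 CPM at day 0, 3.67, 6.35 and 5.36 CPM at day 4 and 4.93, 4.97 and 5.15 CPM at day 8. Its day 4 libraries overlapped those of both other days, and its changes were -0.24 (SE 0.23, edgeR adjusted p = 0.412) to day 4 and -0.03 (SE 0.23, adjusted p = 0.934; 0.10 without day 4 replicate 2) from there to day 8.

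Cry1, the stronger of the cryptochrome repressors, stood at 10.6, 9.78 and 10.7 CPM at day 0, at 15.6, 19.6 and 21.5 CPM at day 4 and at 23.6, 22.6 and 25.8 CPM at day 8. The days did not overlap, each being higher than the last. The rise to day 4 passed (0.87, SE 0.16, edgeR adjusted p = 0.000866), and the further difference to day 8 did not (0.34, SE 0.15, edgeR adjusted p = 0.128). Cry2, its paralog, was at 21.9, 24.8 and 23.2 CPM at day 0, at 37.4, 37.3 and 36.1 CPM at day 4 and at 28.7, 37.3 and 26.5 CPM at day 8. Cry2 rose to day 4 (0.66, SE 0.15, edgeR adjusted p = 0.00320), a call that total counts did not give (0.34, adjusted p = 0.0520). Ciart, also called Chrono, a repressor that binds BMAL1, was the lowest of the members in CPM at day 0. It measured 3.26, 4.50 and 3.17 CPM at day 0, 4.21, 1.96 and 4.96 CPM at day 4 and 6.63, 7.80 and 4.63 CPM at day 8. Only day 8 lay above day 0 throughout, and no comparison passed (to day 4, 0.03, SE 0.35, adjusted p = 0.957, with values from -0.24 to 0.34 when 1 library was left out).

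At day 8, 4 members were higher than at day 0 and 0 lower, against 33.5% of all genes higher and 29.9% lower (63.4% together). Libraries did not overlap for 5 members of 10 and for 72.7% of all genes. Per1 (1.53, SE 0.24, edgeR adjusted p = 0.000246) and Cry1 (1.21, SE 0.16, edgeR adjusted p = 7.38e-05) passed in all 15 alternatives. Cry2 passed as well (0.40, SE 0.15, edgeR adjusted p = 0.0330). That call was lost on removal of day 0 replicate 1 (0.133), 2 (0.0576) or 3 (0.0992) or of day 8 replicate 2 (0.25, 0.113), with no filter (0.0756) and with total counts (0.03, 0.844), where the last value in each bracket is the edgeR adjusted p. Nr1d1 was at the threshold (0.54, SE 0.22, edgeR adjusted p = 0.0497) and did not pass in 13 of 15 alternatives, among them each day 0 and each day 4 library left out and day 8 replicates 1 and 2 (adjusted p from 0.0501 to 0.222); without day 8 replicate 2 its log2 fold change was 0.29. For Dbp (0.29, SE 0.20, adjusted p = 0.234) and Per3 (0.18, SE 0.17, adjusted p = 0.354) the libraries of days 0 and 8 overlapped, and with total counts the signs turned (-0.08 and -0.18). Nr1d2 was at -0.50 (SE 0.26, adjusted p = 0.119), with day 8 replicates 2 and 3 below every day 0 library. It was lower at -0.84 (0.0131) without day 8 replicate 1 and at -0.86 (0.0156) with total counts. Ciart was at 0.80 (SE 0.34, adjusted p = 0.0626), and passed without day 4 replicate 2 (0.0186) or day 8 replicate 3 (0.99, 0.0417), with only these days in the fit (0.0201) and with no filter (0.0495). Tef was at 0.32 (SE 0.15, adjusted p = 0.0791), at 0.45 (0.0167) without day 8 replicate 1 and at -0.05 with total counts. Per2 was at -0.27 (SE 0.23, adjusted p = 0.330), and at -0.63 (0.0483) with total counts.

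Per kilobase of exon in GENCODE M21, the order of the members' levels changed with the day. At day 0 Dbp led at 17.7 ± 2.91 CPM per kb, followed by Nr1d1 at 12.0 ± 1.74 and Tef at 10.7 ± 0.545, which overlapped, and Per2 was lowest at 1.03 ± 0.115. At day 4 Tef led at 11.8 ± 0.934 CPM per kb, with overlapping neighbours down to Dbp (9.72 ± 2.34), Per1 (8.38 ± 1.17) and Nr1d1 (8.22 ± 0.75). Nr1d2 ranked 4 of 10 at day 0 with 4.46 ± 0.712 CPM per kb and 8 of 10 at day 4 with 1.12 ± 0.282. Between ranks 4 and 10 at day 0, Nr1d2 overlapped Cry2, Cry1 overlapped Per1 and Ciart overlapped Per3, while the other neighbours did not overlap. At day 8 Dbp (21.5 ± 3.83 CPM per kb) and Nr1d1 (17.4 ± 5.48) led again and overlapped, and Per3 (1.57 ± 0.151) and Per2 (0.857 ± 0.02) were lowest and did not overlap.

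**Figure D3:**
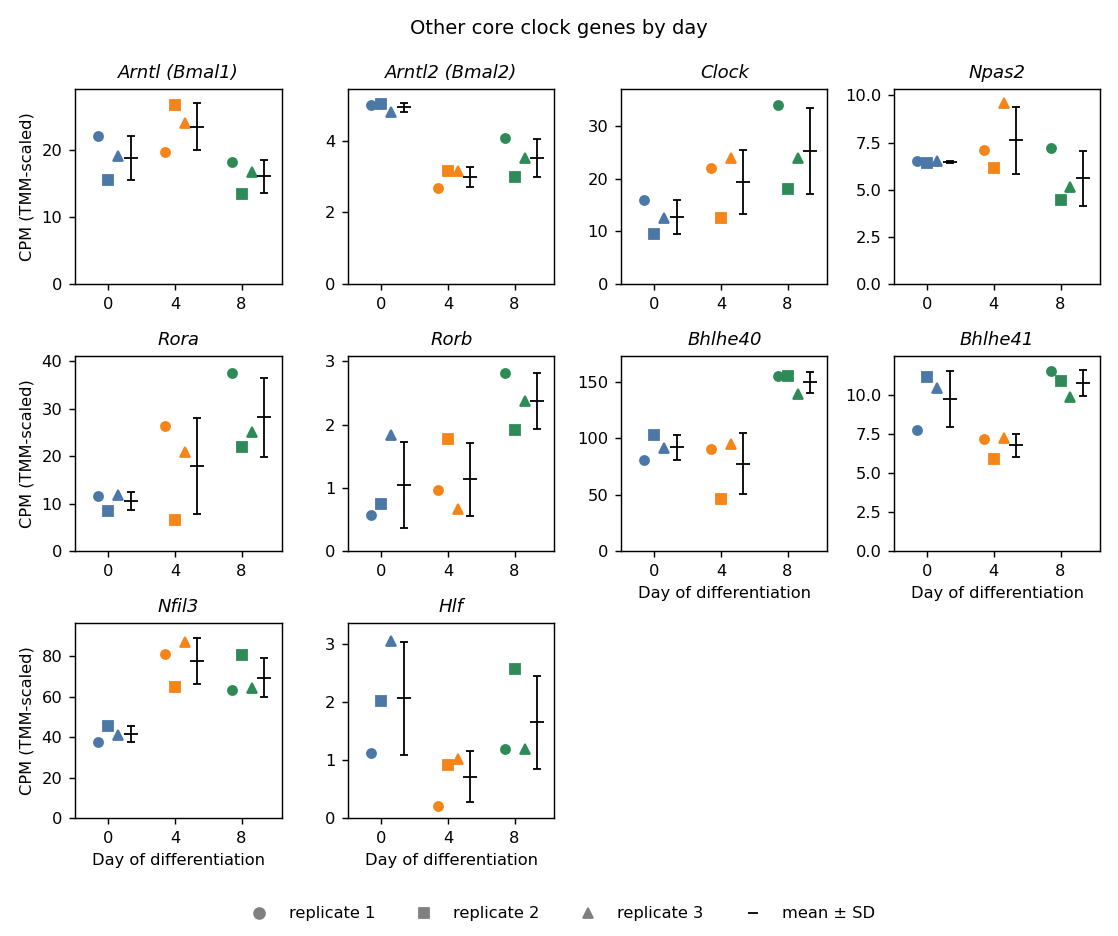
CPM (vertical axes, each from 0) of 10 other core clock genes at day 0, 4 and 8 (horizontal axes), with 1 point per library and a bar for mean ± SD. Arntl averages 18.9, 23.6 and 16.1 CPM over the 3 days, and Nfil3 averages 41.4, 77.7 and 69.4 CPM.

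The rest of the loop was read in 10 further core clock genes, both activators and repressors. By day 4, 1 of them rose (Nfil3) and 3 fell (Arntl2, Bhlhe41 and Hlf), a called share below the 54.6% of all genes. From day 4 to day 8, 2 rose (Bhlhe40 and Bhlhe41) and 0 fell, and from day 0 to day 8, 4 rose (Clock, Rora, Bhlhe40 and Nfil3) and 0 fell, against 22.4% and 63.4% of all genes called. Arntl, encoding BMAL1, measured 22.1, 15.5 and 19.1 CPM at day 0, 19.8, 26.8 and 24.1 CPM at day 4 and 18.2, 13.4 and 16.8 CPM at day 8. Day 4 lay above day 8 in every library, and the difference from day 4 to day 8 was -0.55 (SE 0.19, edgeR adjusted p = 0.0572); it passed with DESeq2 (0.0233), with the RLE scaling of edgeR (0.0465) and without day 4 replicate 1 (-0.66, 0.0310). Clock, its partner, measured 12.7 ± 3.26, 19.5 ± 6.14 and 25.3 ± 8.17 CPM and was higher at day 8 than at day 0 (1.00, SE 0.30, edgeR adjusted p = 0.0139). Removing day 0 replicate 2 (0.81, 0.0657 for the adjusted p) or day 8 replicate 1 (0.72, 0.0666) ended that call, as did total counts (0.64, 0.0836). Npas2, which can replace CLOCK, showed overlapping days at 6.47 ± 0.0533, 7.61 ± 1.76 and 5.59 ± 1.45 CPM.

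**Figure D4:**
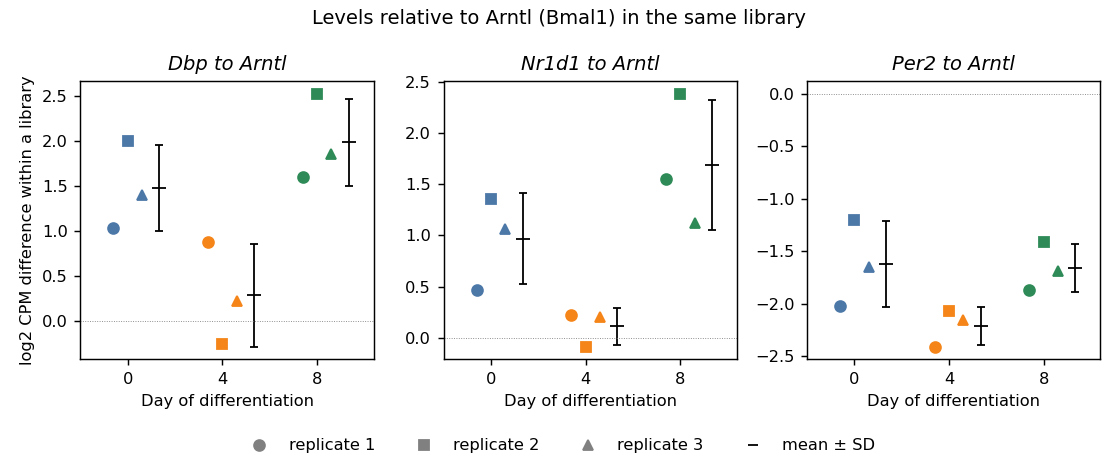
Difference in log2 CPM (prior count 2) between Dbp, Nr1d1 or Per2 and Arntl within each library (vertical axis) by day (horizontal axis), with 1 point per library and a bar for mean ± SD. For Nr1d1 all day 4 libraries, -0.09 to 0.22, lie below all day 0 and day 8 libraries.

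Within a library, a ratio to Arntl hardly depends on the scaling of libraries. The log2 ratio of Nr1d1 to Arntl was 0.47, 1.36 and 1.06 at day 0, 0.22, -0.09 and 0.20 at day 4 and 1.55, 2.39 and 1.12 at day 8. The groups of day 4 and of either other day did not overlap, whereas those of days 0 and 8 did. For Dbp the ratio was 1.04, 2.00 and 1.41 at day 0, 0.88, -0.25 and 0.23 at day 4 and 1.60, 2.53 and 1.86 at day 8, with day 4 again lowest. For Per2 it was -1.62 ± 0.41, -2.21 ± 0.18 and -1.66 ± 0.23, and day 4 lay below the rest throughout. The CPM of Per2 itself overlapped between day 4 and both other days, while Arntl, the denominator, averaged highest at day 4 (23.6 CPM against 18.9 and 16.1). Ratios of the other members, among them those that rose, were not made. With 3 libraries a group, an exact permutation test cannot give a two-sided p below 0.10, so these ratios are given without one.

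The ROR receptors activate Arntl where the REV-ERB proteins repress it. Rora measured 10.6 ± 1.88, 17.9 ± 10.2 and 28.1 ± 8.31 CPM. Its difference from day 0 to day 4 did not pass (0.76, SE 0.41, edgeR adjusted p = 0.140) but did without day 4 replicate 2, the library that stood apart (1.16, 0.00141). Rorb was low, with its highest mean of 2.37 ± 0.445 CPM at day 8, and its difference from day 0 to day 8 did not pass (1.18, SE 0.49, edgeR adjusted p = 0.0572). It passed when day 0 replicate 3 (1.83, 0.0105) or day 4 replicate 2 (0.0382) was removed, with DESeq2 (0.0384), with no filter (0.0424) and with only these days in the fit (0.0366). From day 0 to day 8 Rora rose (1.41, SE 0.41, edgeR adjusted p = 0.0118), a call that ended on removal of day 0 replicate 2 (1.26, 0.0509 for the adjusted p) or of day 8 replicate 1 (1.15, 0.0520).

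Among the other repressors, Nfil3, which opposes DBP at D-boxes, rose from 41.4 ± 3.91 to 77.7 ± 11.5 CPM by day 4 (0.91, SE 0.15, edgeR adjusted p = 0.000627) and stood at 69.4 ± 9.62 CPM at day 8. Bhlhe40, the E-box repressor DEC1, measured 81.1, 103 and 91.4 CPM at day 0, 90.4, 46.1 and 95.1 CPM at day 4 and 155, 155 and 139 CPM at day 8. From day 0 to day 8 its difference was 0.71 (SE 0.23, edgeR adjusted p = 0.0215), lost on removal of day 0 replicate 1 (0.0921) or 3 (0.0680) or day 8 replicate 1 (0.0559) or 2 (0.0565), and with total counts (0.34, 0.180). It rose between days 4 and 8 (0.96, SE 0.23, edgeR adjusted p = 0.0171), a call lost on removal of day 8 replicate 1 (0.0524 for the adjusted p) or 2 (0.0542), and the low day 4 value was that of replicate 2. Bhlhe41, or DEC2, dipped from 9.72 ± 1.78 to 6.75 ± 0.726 CPM and returned to 10.7 ± 0.812, with edgeR adjusted p of 0.0374 and 0.0311. Its first call did not pass when any library of day 0 or day 4 was left out, apart from day 0 replicate 1, and its second withstood the removal of day 0 replicate 1, of day 4 replicate 1 and of day 8 replicate 3 but of no other library. The first was also lost without day 8 replicate 3 (0.0503), with no filter (0.0771) and with a replicate block (0.0551). With only the days compared in the fit both were lost (0.0597 and 0.0724). The adjusted p of the lost calls ran from 0.0502 to 0.142. Hlf, the third relative of DBP and TEF, was low, at 2.05 ± 0.972, 0.713 ± 0.441 and 1.64 ± 0.794 CPM. Its fall to day 4 (-1.51, SE 0.58, edgeR adjusted p = 0.0477) was lost on removal of day 0 replicate 2 (0.0878) or 3 (0.175), of day 4 replicate 1 (0.119) or 3 (0.0546), and of day 8 replicate 1 (0.0595) or 3 (0.0566). With only the days compared in the fit it was lost as well (0.0658). Arntl2, a paralog of Arntl, fell from 4.93 ± 0.122 to 2.99 ± 0.279 CPM by day 4 (-0.72, SE 0.22, edgeR adjusted p = 0.0176), a call lost on removal of day 0 replicate 1 (0.0528) or 2 (0.0535) or of day 4 replicate 1 (0.0578), and with no filter (0.0517).

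Of 14 genes for clock kinases, ubiquitin ligases and partner proteins, 2 rose and 6 fell by day 4, which is near the 54.6% of all genes called. Timeless, a replication fork protein with a disputed role in the mammalian clock, fell from 8.59 ± 1.44 to 3.51 ± 1.33 CPM (-1.29, SE 0.31, edgeR adjusted p = 0.00560), and Fbxl21, a ligase subunit for cryptochromes, from 2.16 ± 0.659 to 0.718 ± 0.205 CPM (-1.57, SE 0.39, edgeR adjusted p = 0.00615). Of 8 genes known as clock outputs 5 rose and 1 fell by day 4, where 28.6% of all genes rose and 26.0% fell. Tsc22d3 and Klf9, among the 5, are also counted with the glucocorticoid targets below. Nampt, the enzyme of NAD+ salvage, rose from 26.3 ± 3.01 to 219 ± 79.8 CPM (3.06, SE 0.30, edgeR adjusted p = 1.44e-05) and Usp2, a deubiquitinase, from 7.79 ± 0.744 to 22.5 ± 5.73 CPM (1.53, SE 0.20, edgeR adjusted p = 0.000109). The gene that fell was Wee1, a mitotic kinase under E-box control (15.1 ± 1.39 to 8.39 ± 1.60 CPM, -0.85, SE 0.18, edgeR adjusted p = 0.00226), named after its value was seen. From day 4 to day 8 the clock outputs had 0 genes of 8 higher and 2 lower, Tsc22d3 among them, against 11.7% and 10.8% of all genes.

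Glucocorticoid targets moved beside the clock genes. Of 12 such genes, 10 rose by day 4 and 0 fell (28.6% and 26.0% of all genes), and 0 rose and 7 fell from day 4 to day 8 (11.7% and 10.8% of all genes). Fkbp5, whose protein binds HSP90 and dampens the glucocorticoid receptor, was at 26.4, 31.3 and 35.8 CPM at day 0, at 379, 383 and 360 CPM at day 4 and at 42.8, 75.9 and 47.2 CPM at day 8. Tsc22d3, an anti-inflammatory glucocorticoid target that is also on the list of clock outputs, went from 49.0 ± 7.09 to 278 ± 29.1 and 68.1 ± 14.8 CPM. From day 4 to day 8 the log2 fold changes were -0.10 for Per1, -2.76 (SE 0.22, edgeR adjusted p = 0.000133) for Fkbp5 and -2.03 (SE 0.19, edgeR adjusted p = 0.000221) for Tsc22d3. There 5 targets did not pass, all named after their values were seen. Klf9 was at -0.07 (SE 0.21), Dusp1 at -0.24 (SE 0.16), Mt1 at 0.51 (SE 0.28) and Mt2 at 0.50 (SE 0.24). Errfi1 was at -0.71 (SE 0.23, edgeR adjusted p = 0.0524), with every day 8 library below every day 4 library. At day 8, 9 of the 12 targets were higher than at day 0 and 2 lower (33.5% and 29.9% of all genes). Of 12 cAMP-responsive and immediate early genes, 2 rose and 7 fell by day 4 (28.6% and 26.0% of all genes). From there to day 8, 4 of them rose and 0 fell (11.7% and 10.8% of all genes). The day 4 low of Nr1d2, Dbp and Per3 fell on the day when Fkbp5 and Tsc22d3 were highest. The part of glucocorticoid signalling in it was not tested. Ucp1, the uncoupling protein that NR1D1 is known to repress, had 0 counts at day 0, 6.71 ± 4.67 CPM at day 4 and 156 ± 62.3 CPM at day 8, the day with the highest mean of Nr1d1.

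The genes whose log2 CPM over the 9 libraries was most like that of Dbp were Trib3, a stress-induced pseudokinase (Pearson r = 0.962), Pafah1b3, a subunit of an acetylhydrolase (0.958), and Mmp12, the macrophage elastase (0.956). Those most like Nr1d1 were Strn4, a striatin scaffold protein (0.982), Snhg16, a small nucleolar RNA host gene (0.969), and Rusc2 (0.965). Trib3 measured 180 ± 15.7, 49.7 ± 25.2 and 268 ± 61.5 CPM over the 3 days, and Rusc2 58.2 ± 3.95, 39.5 ± 1.08 and 83.8 ± 16.5 CPM. Members aside, 5 genes reached an r of 0.95 with Dbp and 4 with Nr1d1. The 9 points share 3 days and 1 scaling per library, so r is a description here. Mmp12 was near 0 at day 4 (0.0278 ± 0.0482 CPM). Removing 1 library moved r with Dbp to between 0.925 and 0.976 and with Nr1d1 to between 0.945 and 0.987, and with total counts r was lowest for Strn4, at 0.884.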

How the data were processed

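RNA-seq was measured in 9 libraries, 3 per day, grouped by the labels. Per the labels' protocols, cells were lysed with detergent, RNA of the cleared supernatant was used, and a stranded kit for total RNA served for the libraries. The authors deposited raw counts of reads per gene; alignment with HISAT2 to GRCm39 and counting with featureCounts are per the submitters' processing notes. Versions, strand setting and annotation release are not given in the sources used here.

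The tests used edgeR 4.0.16 (R 4.3.3). Its filterByExpr, at a minimum count of 10 and a total of 15, kept 14649 of 55359 genes. All libraries entered 1 quasi-likelihood fit with TMM scaling, no covariates and 6 residual degrees of freedom, with two-sided tests and Benjamini-Hochberg adjustment over all genes tested, at a threshold of 0.05. The SE is the log2 fold change divided by the root of F. Alternatives were RLE scaling, total counts, DESeq2 1.42.0, no filter, a replicate block, a fit of only the days compared, and each library left out. The pipeline was tested on simulated data, in which a small set of genes, balanced up and down, was changed at day 4. That simulation does not cover the scaling of libraries that differ in many genes, as these do. Replicates differed beyond sampling noise (chi-square per degree of freedom, 15.5 to 229).

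The members and gene lists were chosen with earlier results of these data known. Named are all members, 10 core clock genes, Thra, Fkbp5, Adipoq, Ucp1, up to 4 called genes per other list with the largest changes, and the 3 genes most correlated with Dbp and with Nr1d1. Sphk2, Wee1, Klf9, Dusp1, Errfi1, Mt1 and Mt2 were added after their values were seen. So were the named precursor genes and the named markers of macrophages and of endothelial, mural, mesothelial, Schwann and skeletal muscle cells. Exon lengths and overlaps are from GENCODE M21 (GRCm38); promoters are from RefSeq (GRCm38.p6). From 2 of these lists, 1 gene each is not reported here.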

Additional observations from a re-analysis of the deposited data

How the results depend on the processing

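Of 450 values of the members, over 3 comparisons and 15 alternatives, 402 kept their direction and side of the threshold, 20 lost a call, 16 gained one and 12 changed sign. The day 4 falls of Nr1d2, Dbp and Per3, their rises to day 8, that of Nr1d1, and the rises of Per1 and Cry1 over day 0 kept theirs in all 15. Total counts in place of TMM moved the median log2 fold change of all tested genes from -0.01 to -0.34 (day 4 against day 0) and from 0.03 to -0.33 (day 8 against day 0), and the share of called genes that were higher from 52.4% to 35.3% and from 52.9% to 37.5%. In day 8 against day 0 total counts gave 2 members higher and 2 lower. When 1 library was left out, 2 to 5 members were higher there and 0 to 1 lower. Day 8 against day 4 called 3285 genes, 1901 with only these days in the fit and 1894 to 4185 when 1 library was left out; it called 1894 on removal of day 4 replicate 3, 2107 of day 8 replicate 1 and 2012 of the second at day 8. Apart from the fewer samples of these last fits, the cause was not tested.

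Signs turned with total counts for Tef (-0.18), Ciart (-0.32), Npas2 (-0.10) and Rorb (-0.18) in day 4 against day 0, and for Per3 (-0.18), Dbp (-0.08), Tef (-0.05) and Bhlhe41 (-0.22) in day 8 against day 0. With 1 library left out, day 4 against day 0 ranged over -0.24 to 0.34 for Ciart, -0.36 to 0.79 for Rorb and -0.42 to 0.01 for Bhlhe40. Day 8 against day 0 ranged over -0.02 to 0.23 for Bhlhe41 and -0.78 to 0.05 for Hlf, and day 8 against day 4 over -0.39 to 0.10 for Per1, -0.33 to 0.20 for Nampt, -0.22 to 0.10 for Per2, -0.38 to 0.04 for Usp2 and -0.07 to 0.42 for Fbxl21. None of these had passed the test.

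Whether replicate numbers pair the libraries was not settled. Deviations of same-numbered libraries correlated from -0.13 to 0.27, above 0.1 in 2 of 9 pairs, and those of different numbers from -0.22 to 0.19. Of 9 libraries, 5 correlated best with their own number. With the replicate block 8070, 9368 and 3105 genes were called from day 0 to 4, from day 0 to 8 and from day 4 to 8, respectively. Nr1d2 was then lower in day 8 against day 0 (-0.55, adjusted p = 0.0133), so that 1 member was lower, Nr1d1 did not pass there (0.52, 0.0608), and Nampt in day 8 against day 4 turned to 0.02. By day 4 Clock passed with the block (0.60, 0.0134) and Bhlhe41 did not (0.0551). Members at a few CPM, such as Ciart with 54 to 207 counts per library, are limited by depth.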
